A study of Mus musculus with 11 samples.

Results

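Mitochondrial and peroxisomal fatty acid oxidation was followed through 44 genes that activate fatty acids, carry them into either organelle, shorten them by beta-oxidation and release the products. The genes were taken from a list of names, chosen with earlier results of these data known and matched to the gene symbols of the deposited table. All 44 were found among its 31280 genes. All 44 also passed the filter on low values, at least 1 FPKM (fragments scaled by transcript length and library depth) in at least 5 libraries, which left 10489 genes to test. Of the 44, 18 act in mitochondria, 15 in peroxisomes and 4 in both organelles, 4 are acyl-CoA synthetases that feed both routes, and 3 are a cytosolic or plasma membrane thioesterase or pantetheinase.

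The study measured whole-liver mRNA of wild-type C57BL/6 mice that had all been fed a methionine- and choline-deficient (MCD) diet for 8 weeks, a diet that produces fatty, inflamed liver without the obesity of the human disease. The MCD group (5 libraries) received water by gavage, and the limonin group (6 libraries) received limonin, a citrus limonoid, at 100 mg/kg by gavage for 4 weeks. Sex and age are not given in the labels, and no healthy liver on a full diet was used here, so each value sets limonin against MCD. Each library is labelled as a separate replicate of its group, and p-values measure the spread between these libraries.

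Fatty acids become acyl-CoA esters before they are burned. Long chains enter mitochondria through the carnitine shuttle and are shortened by a dehydrogenase, a hydratase, a second dehydrogenase and a thiolase, with electrons passed to the respiratory chain by the electron transfer flavoprotein. Peroxisomes take very long, branched and dicarboxylic chains and the side chains of bile acid precursors, begin with an oxidase that makes hydrogen peroxide, and hand shortened products on as carnitine or CoA esters or as free acids. In liver, genes of both routes are textbook targets of the nuclear receptor PPARalpha.

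Genes of both organelles were higher with limonin, and no member was lower. At an adjusted p under 0.05 (limma on log2(FPKM + 1), Benjamini-Hochberg over all genes tested), 17 of 44 members (38.6%) rose, 0 fell and 27 were not called. Over all genes tested, 7.24% were called higher and 18.7% lower. That background depends on the scaling: with median-ratio scaling 14.01% of all genes and 19 members were called higher, with quantile normalization 17.3% and 19 members, and 17.6% and 22 members by the q-values in the authors' deposited table. The median log2 fold change, limonin minus MCD, was 0.25 over the members and -0.07 over all genes tested. The fitted difference was above 0 for 36 members and below 0 for 8. In 9 members (Acsl1, Echs1, Hadh, Hadha, Hadhb, Decr1, Abcd3, Acox2 and Acad11) every limonin library lay above every MCD library, which happened for 2.97% of all genes tested. No member had every limonin library below every MCD library, against 8.33% of all genes.

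By organelle, 8 of 18 mitochondrial members rose (median log2 fold change 0.25), as did 4 of 15 peroxisomal members (median 0.21). The acyl-CoA synthetases gave 2 of 4, the members of both organelles 1 of 4, and the group of cytosolic and membrane enzymes 2 of 3. The difference between the mitochondrial and the peroxisomal count was not tested as such, and the test of paired genes is given after the single genes. The mitochondrial rises lay in the beta-oxidation spiral (6 of 11) and in electron transfer (2 of 3), with 0 of 3 in carnitine entry. The peroxisomal rises lay among the entry and proliferation genes (2 of 3) and the spiral (2 of 8), with 0 of 4 among the exit enzymes.

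**Figure D1:**
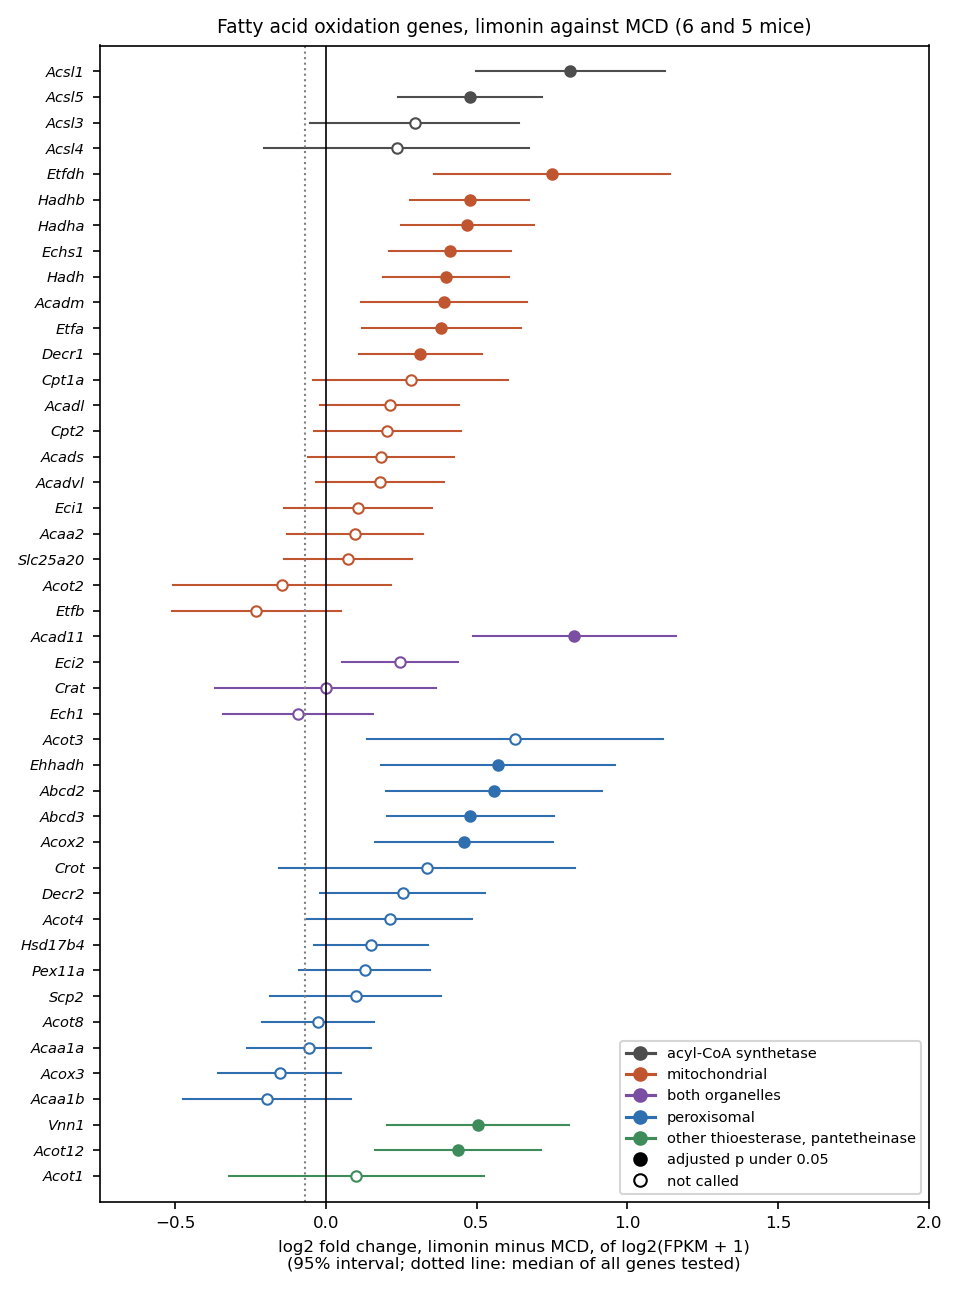
Log2 fold change, limonin minus MCD, of log2(FPKM + 1) for the 44 members (horizontal axis), with 95% intervals; colours give the compartment, filled points an adjusted p under 0.05, and the dotted line the median of all genes tested. The 17 filled points all lie above 0, led by Acad11, Acsl1 and Etfdh.

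Libraries did not contribute evenly. MCD 2 held the lowest value of all 11 libraries for 23 of 44 members, and the highest value lay in a limonin library for 41 of 44 (limonin 2 for 13, limonin 3 for 12, limonin 4 for 9). Without MCD 2, 3.13% of all genes tested were called higher. The members still called higher were 8: Acsl1, Acsl5, Echs1, Hadh, Hadha, Hadhb, Etfdh and Acad11. The mitochondrial count was then 5 and the peroxisomal count 0. The same 8 kept their calls in each of the 11 fits that left out 1 library, with an adjusted p of at most 0.0393 in limma, and the other 9 lost theirs in at least 1. Per library, the median difference of the 18 mitochondrial members from the MCD mean ran from -0.15 (MCD 2) to 0.09 (MCD 4) in the MCD group and from 0.09 (limonin 1) to 0.44 (limonin 3) in the limonin group. The 15 peroxisomal members ran from -0.19 (MCD 2) to 0.06 (MCD 4) and from 0.09 (limonin 1) to 0.31 (limonin 2).

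**Figure D2:**
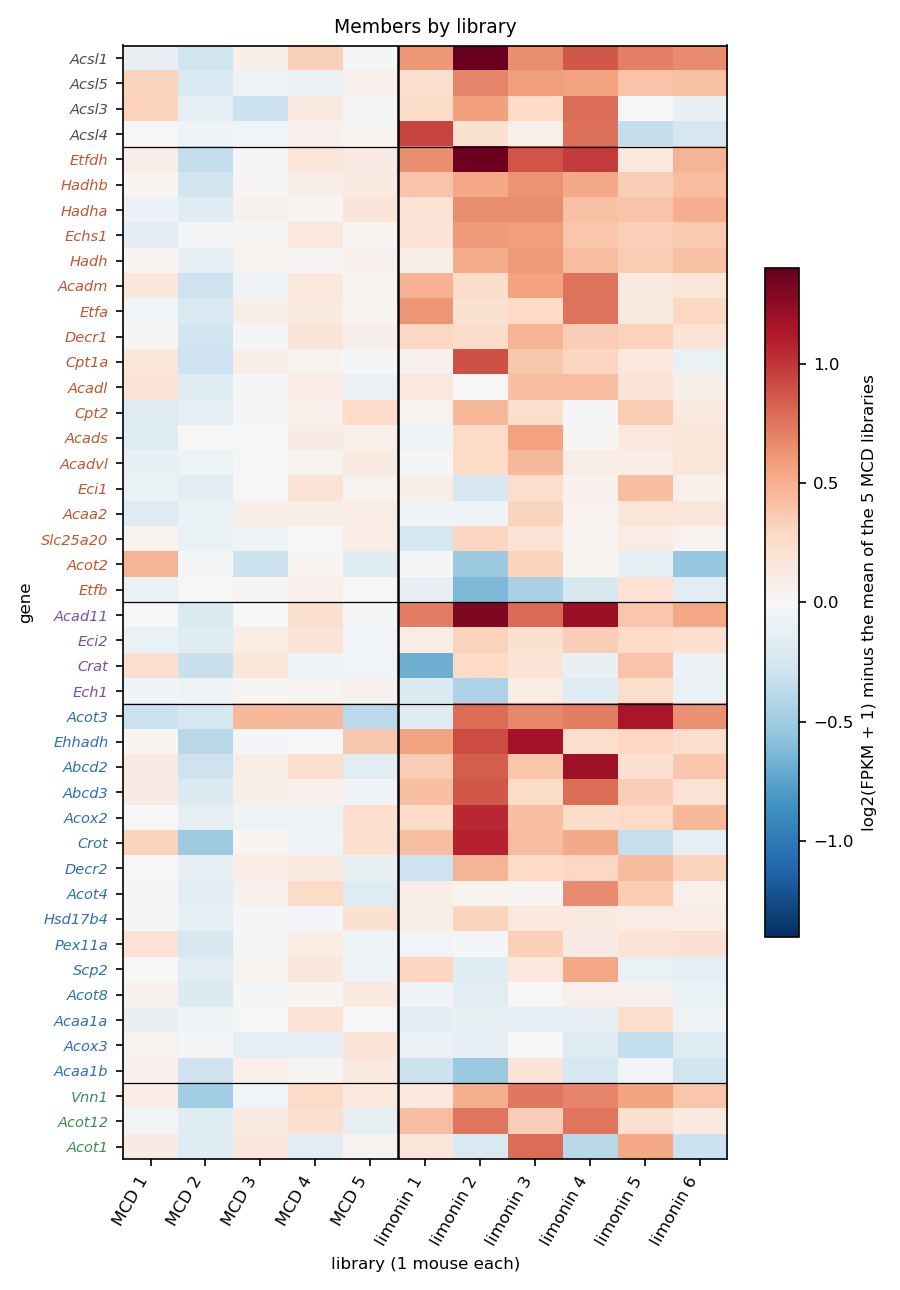
Difference of log2(FPKM + 1) from the mean of the 5 MCD libraries (colour) for each member (rows, grouped by compartment) in each library (columns, 1 mouse each). Most members are palest or blue in MCD 2 and darkest in limonin 2, 3 or 4.

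The labelled tissue was checked against markers of liver cell types. Of 13 hepatocyte markers tested, 6 were higher and 0 lower with limonin (summed 31263 to 38941 FPKM in MCD, 33844 to 50024 in limonin). Markers of other cells were tested only if they passed the filter, which the 5 MCD libraries can meet alone. Of 10 cholangiocyte, 10 lymphocyte and 7 neutrophil markers, 7, 3 and 4 were tested, the lymphocyte ones being Cd79a, Cd79b and Ighm. These counts of calls are therefore not independent of the filter, while the sums cover all markers found. Called lower were 7 of 7 cholangiocyte markers (78.9 to 466 against 28.0 to 98.0 FPKM summed). So were 9 of 12 stellate or fibroblast markers (95.5 to 185 against 59.0 to 84.8) and 6 of 12 macrophage markers (242 to 906 against 157 to 264). The others were 3 of 3 lymphocyte markers (8.06 to 15.7 against 3.49 to 8.28) and 3 of 4 neutrophil markers (5.84 to 38.7 against 4.37 to 8.65). Of 8 endothelial markers, 1 was higher and 2 were lower (42.6 to 81.0 against 40.8 to 60.1). Adipocyte markers summed to at most 0.556 FPKM in any library. Heart or skeletal muscle markers summed to 19.99 in limonin 5 and 12.3 in limonin 6, against at most 1.87 elsewhere. No marker was at 0 in every library. In whole liver, fewer cells of a type and less RNA per cell cannot be told apart. When libraries were scaled to the hepatocyte markers, the median log2 fold change of all genes tested moved to -0.38 and that of the members to -0.12. On that scale 3 members were called higher (Acsl1, Etfdh and Acad11) and 8 lower. Over all 10489 genes tested, 110 (1.05%) were then higher and 5570 lower.

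Transcript composition also moved with the values. Across the 44 members, Spearman's rho between log2 fold change and the GC content of the longest coding transcript was -0.63, and with its length 0.45; across all genes with a transcript (10481) it was -0.39 and 0.19. These are descriptions across genes of the same libraries. After the trends with length and GC were removed from each library, an alternative added after the data were seen, rho with GC was -0.19 among the members. Then 13.9% of all genes were called higher, and 21 members, with 16 of the earlier 17 among them. Decr1 was the one lost (0.25, adjusted p = 0.0707 in limma), and Acadvl, Acads, Eci1, Eci2 and Acot8 were gained. Among the 22 members of lower GC content, 13 were called before and 12 after removal, and among the 22 of higher GC content 4 and 9. What part cell type markers, transcript composition or MCD 2 had in the results below was not tested.

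**Figure D3:**
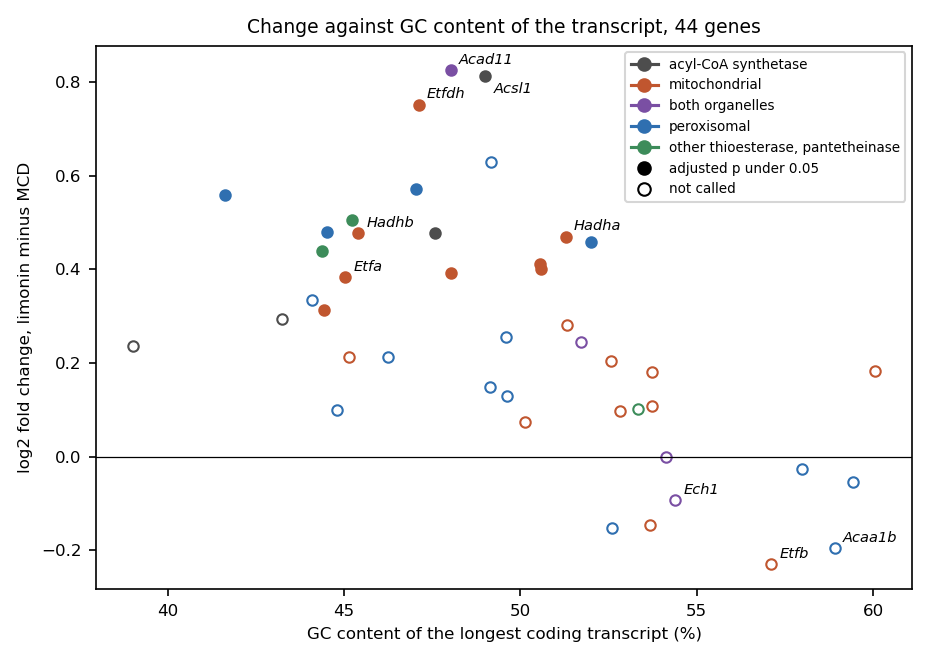
Log2 fold change, limonin minus MCD (vertical axis), against GC content of the longest coding transcript in percent (horizontal axis) for the 44 members; colours give the compartment and filled points an adjusted p under 0.05. Members under 50% GC lie mostly above 0.2, and the lowest values, Etfb and Acaa1b, lie near 57% and 59%.

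Because the members are linked to PPARalpha, the 250 bases before each start site were searched on both strands for its direct repeat (AGGTCA, any 1 base, AGGTCA), with up to 2 mismatches at its 12 fixed bases. Promoters are RefSeq's, on GRCm38.p6, and 38 of 44 members had one; Abcd2, Vnn1, Crat, Acaa2, Hsd17b4 and Decr1 had no entry. A match was present in 4 of the 42 promoters of these members (9.52%) and in 3.24% of all 32851 promoters of the table; the 4 belong to 4 different genes. By call, 3 of 14 members that rose had a match and 1 of 24 that were not called. Of these 3, Echs1 kept its call in every fit without 1 library, while Acot12 and Etfa lost theirs in 4 and 6 such fits. The difference between the shares rests on 4 matches and was not tested. The matched stretches are shown in capitals, 5′ to 3′ on the strand of the gene. Their letters differ, and they share only that they lie within the mismatch limit of the search. A match is a description of letters, not a binding site.
Acot12: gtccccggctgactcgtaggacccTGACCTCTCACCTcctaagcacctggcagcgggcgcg
Echs1: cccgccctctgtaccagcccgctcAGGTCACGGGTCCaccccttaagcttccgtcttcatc
Etfa: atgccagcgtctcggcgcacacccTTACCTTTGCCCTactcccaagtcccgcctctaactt
Acot4: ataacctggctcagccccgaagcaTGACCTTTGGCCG
The Acot12 window (chr13:91741387-91741447, plus strand) had 1 mismatch, with the repeat on the opposite strand 110 to 98 bases before the start. The Echs1 window (chr7:140116468-140116528, minus strand) had 2 mismatches, with the repeat on the strand of the gene 83 to 71 bases before the start. The Etfa window (chr9:55512284-55512344, minus strand) had 2 mismatches on the opposite strand 77 to 65 bases before the start. In Acot4 (chr12:84038342-84038378, plus strand), a gene that was not called, the match had 2 mismatches and lay on the opposite strand 13 to 1 bases before the start.

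Of the synthetases that activate fatty acids, Acsl1 and Acsl5 rose. Acsl1, the main long-chain acyl-CoA synthetase of liver (GRCm38 chr8:46471037-46536051), measured 19.0, 16.8, 21.9, 26.1 and 20.1 FPKM in MCD 1 to 5. In the limonin libraries it ranged from 31.7 to 55.2 with a median of 33.6, all 6 above the MCD group. The log2 fold change was 0.81 ± 0.15 (SE; adjusted p = 0.00286, limma), and Acsl1 stayed called under each of the 26 alternatives. Acsl5, an isoform of mitochondria and the endoplasmic reticulum, measured 30.3, 20.7, 23.0, 22.8 and 25.2 FPKM in MCD and 28.5 to 39.5 (median 34.4) with limonin. It rose by 0.48 ± 0.11 (adjusted p = 0.0089, limma), and 5 of 6 limonin libraries lay above all of MCD. Acsl3, found at lipid droplets, measured 3.03, 1.92, 1.61, 2.54 and 2.16 FPKM in MCD and 1.99 to 4.53 (median 2.86) with limonin, and was not called (0.29 ± 0.16, adjusted p = 0.193, limma). Acsl4, which prefers arachidonate, spanned 6.59 to 7.27 FPKM in MCD and 5.28 to 14.3 with limonin and was not called either.

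The carnitine shuttle gave no call. Cpt1a, the outer-membrane carnitine palmitoyltransferase that commits long chains to mitochondria, measured 33.0, 23.8, 31.5, 30.4 and 28.9 FPKM in MCD and 27.5 to 55.1 (median 34.5) with limonin. The groups overlapped, and the difference was 0.28 ± 0.15 (95% interval -0.04 to 0.61; adjusted p = 0.182, limma). Cpt2, which restores the CoA ester inside, measured 42.1, 43.5, 47.1, 50.2 and 58.0 FPKM in MCD and 47.0 to 66.6 (median 54.7) with limonin (0.20 ± 0.11, interval -0.04 to 0.45). Slc25a20, the carrier across the inner membrane, measured 25.4, 23.0, 23.3, 24.6 and 26.5 FPKM in MCD and 20.5 to 30.4 (median 25.9) with limonin. Its difference was 0.07 ± 0.10 (interval -0.14 to 0.29). All of these intervals include 0, so the values are compatible with no change and with any change inside the intervals.

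In the mitochondrial spiral, the enzymes after the acyl-CoA dehydrogenases carried most of the calls. Hadha and Hadhb, the alpha and beta subunits of the trifunctional protein, lie head to head on GRCm38 (chr5:30118304-30155162, minus strand, and chr5:30155248-30184593, plus strand). Hadha measured 25.1, 23.3, 27.7, 27.1 and 30.3 FPKM in MCD and 30.8 to 42.3 (median 36.9) with limonin, a rise of 0.47 ± 0.10 (adjusted p = 0.00666, limma). Hadhb measured 22.3, 18.2, 22.1, 23.4 and 23.96 FPKM in MCD and 28.1 to 34.3 (median 30.9) with limonin, a rise of 0.48 ± 0.09 (adjusted p = 0.00377, limma). In both subunits all 6 limonin libraries lay above all 5 MCD libraries. Echs1, the short-chain enoyl-CoA hydratase, measured 17.7, 19.5, 20.1, 22.1 and 20.3 FPKM in MCD and 23.1 to 30.5 (median 26.1) with limonin, again without overlap (0.41 ± 0.10, adjusted p = 0.00846, limma). Hadh, the short-chain hydroxyacyl-CoA dehydrogenase, spanned 37.0 to 42.7 FPKM in MCD and 43.4 to 62.0 with limonin (0.40 ± 0.10, adjusted p = 0.011, limma).

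Decr1, the dienoyl-CoA reductase for polyunsaturated chains, measured 28.3, 22.7, 27.4, 31.5 and 29.4 FPKM in MCD and 31.8 to 38.8 (median 34.5) with limonin. The groups did not overlap, though the highest MCD library and the lowest limonin library nearly met (0.31 ± 0.09, adjusted p = 0.0276, limma). Acadm, the medium-chain dehydrogenase, spanned 41.0 to 56.2 FPKM in MCD and 54.9 to 85.8 with limonin (0.39 ± 0.13, adjusted p = 0.0383, limma). It was the single call among the 4 mitochondrial acyl-CoA dehydrogenases listed by chain length. The very-long-chain enzyme Acadvl spanned 121 to 141 FPKM in MCD and 127 to 177 with limonin. The long-chain enzyme Acadl and the short-chain enzyme Acads gave differences of 0.21 ± 0.11 and 0.18 ± 0.11. The calls of Acadm and Decr1 were lost without MCD 2 (adjusted p = 0.115 and 0.0874, limma) and, for both, also without MCD 3 or limonin 4. Acadm was also lost without MCD 5, limonin 1 or limonin 3, and Decr1 without MCD 1.

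Acaa2, the mitochondrial thiolase, had the highest mean FPKM of the 44 members in the limonin group and the second highest, after Acaa1b, in the MCD group. It measured 409.8, 436, 491, 493 and 499 FPKM in MCD and 445 to 577 (median 501) with limonin, with overlapping groups (0.10 ± 0.10, interval -0.13 to 0.32, adjusted p = 0.519, limma). Eci1, the mitochondrial enoyl-CoA isomerase, gave 0.11 ± 0.12. Acot2, a mitochondrial thioesterase that frees the fatty acid again, measured 14.7, 10.1, 8.11, 10.5 and 9.01 FPKM in MCD and 6.79 to 13 (median 9.63) with limonin and was not called.

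Of the electron carriers, Etfdh and Etfa rose and Etfb was not called. Etfdh, which passes electrons from the flavoprotein to ubiquinone (GRCm38 chr3:79603788-79629500), measured 7.64, 5.39, 6.96, 8.11 and 7.77 FPKM in MCD and 7.99 to 20.05 (median 12.8) with limonin. It rose by 0.75 ± 0.18 (adjusted p = 0.0109, limma), with 5 of 6 limonin libraries above all of MCD. Etfa, the alpha subunit of the flavoprotein, measured 80.5, 71.0, 87.3, 91.2 and 84.6 FPKM in MCD and 90.9 to 141 (median 101) with limonin, and rose by 0.38 ± 0.12 (adjusted p = 0.0355, limma). That call was lost without MCD 1, 2, 3 or 5 and without limonin 1 or 4. Etfb, the beta subunit with which Etfa pairs in equal numbers, measured 314, 335, 343, 353 and 337 FPKM in MCD and 217 to 387 (median 294) with limonin. Although 5 of 6 limonin libraries lay below all of MCD, Etfb was not called (-0.23 ± 0.13, adjusted p = 0.208, limma), and limonin 5 was the highest library of all. With length and GC trends removed, the difference of Etfb was 0.10.

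**Figure D4:**
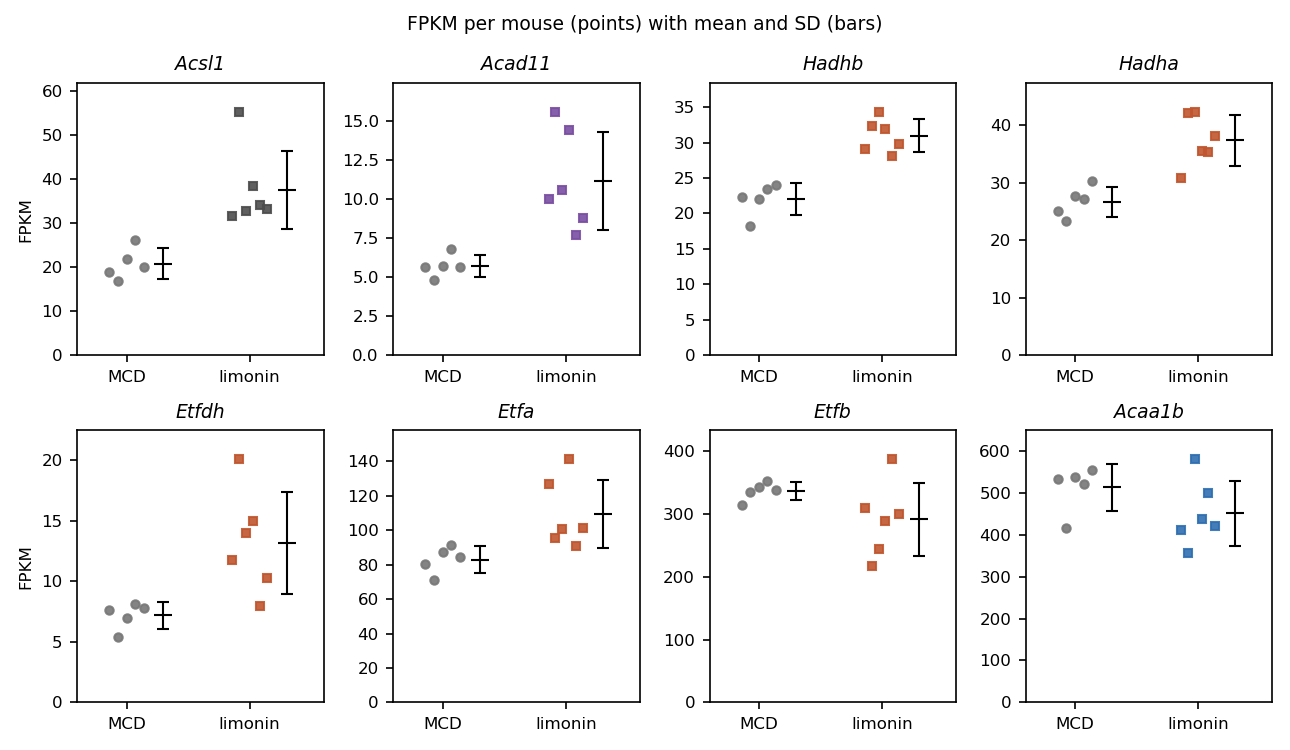
FPKM (vertical axes, from 0) of Acsl1, Acad11, Hadhb, Hadha, Etfdh, Etfa, Etfb and Acaa1b in each mouse (points), with mean and SD (bars), 5 MCD and 6 limonin. Acsl1, Acad11, Hadhb and Hadha do not overlap between the groups, while Etfb and Acaa1b do.

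At the peroxisome, the membrane transporters were higher. Abcd3, the carrier of branched and dicarboxylic chains and bile acid precursors (GRCm38 chr3:121758774-121815302), measured 27.5, 21.8, 26.8, 26.4 and 24.3 FPKM in MCD and 29.2 to 46.9 (median 33.3) with limonin. All 6 limonin libraries lay above MCD (0.48 ± 0.13, adjusted p = 0.0169, limma). Abcd2, a carrier of very long chains, measured 4.21, 2.94, 4.15, 4.60 and 3.35 FPKM in MCD and 4.59 to 9.91 (median 5.27) with limonin, with 5 of 6 above MCD (0.56 ± 0.17, adjusted p = 0.0268, limma). Pex11a, which promotes division of peroxisomes, measured 43.2, 31.9, 36.7, 40.0 and 35.7 FPKM in MCD and 36.2 to 47.1 (median 41.6) with limonin and was not called (0.13 ± 0.10). Without MCD 2 the transporters missed the threshold (adjusted p = 0.0557 for Abcd3 and 0.0806 for Abcd2, limma). Abcd2 did so also without MCD 5 or limonin 2.

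In the peroxisomal spiral, Acox2 and Ehhadh rose. Acox2, the oxidase of branched chains and bile acid intermediates, measured 45.0, 40.9, 43.4, 42.7 and 52.9 FPKM in MCD and 53.7 to 94.0 (median 57.6) with limonin, with all 6 limonin libraries above MCD (0.46 ± 0.14, adjusted p = 0.0269, limma). Ehhadh, the L-bifunctional enzyme for dicarboxylic chains, measured 69.4, 51.7, 67.5, 68.1 and 88.4 FPKM in MCD and 81.0 to 154 (median 92.0) with limonin. Only 3 of 6 limonin libraries lay above MCD (0.57 ± 0.18, adjusted p = 0.0343, limma). Both calls were lost without MCD 1, 2 or 3, and that of Ehhadh also without MCD 4, limonin 2 or limonin 3. Hsd17b4, the D-bifunctional enzyme for straight and branched chains, measured 77.8, 72.1, 78.1, 77.8 and 92.2 FPKM in MCD and 84.3 to 98.4 (median 86.5) with limonin and was not called (0.15 ± 0.09, adjusted p = 0.227, limma). Decr2, the peroxisomal dienoyl-CoA reductase, measured 42.1, 38.9, 45.7, 46.1 and 39.3 FPKM in MCD and 34.5 to 59.2 (median 52.6) with limonin. It was not called (0.25 ± 0.13, adjusted p = 0.152, limma), but was without limonin 1, its lowest library (0.36, adjusted p = 0.0129).

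None of the 3 thiolase genes of the peroxisome was called. Acaa1b, whose mean FPKM was the highest of the members in MCD (512 against 466 for Acaa2) and the second highest with limonin (451 against 499), measured 533, 416, 537, 521 and 555 FPKM in MCD and 355 to 579 (median 429) with limonin (-0.20 ± 0.13, adjusted p = 0.283, limma). Acaa1a measured 62.5, 64.7, 67.0, 77.0 and 67.1 FPKM in MCD and 61.0 to 80.0 (median 62.4) with limonin (-0.05 ± 0.10). The longest transcripts of the pair are 96% identical over 1450 aligned bases, so the split of fragments between them is uncertain. Scp2, whose longer product is the thiolase for branched chains, measured 248, 225, 257, 277 and 241 FPKM in MCD and 222 to 362 (median 255) with limonin (0.10 ± 0.13). Acox3, a further branched-chain oxidase and the lowest member in FPKM, spanned 1.96 to 2.68 in MCD and 1.54 to 2.20 with limonin (-0.15 ± 0.10).

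Exit from the peroxisome gave no call. Crot, which makes carnitine esters of the shortened chains, measured 37.7, 21.1, 30.9, 29.0 and 35.6 FPKM in MCD and 23.9 to 65.2 (median 41.1) with limonin, a wide overlap (0.34 ± 0.23). Acot3, a peroxisomal thioesterase, measured 19.1, 20.1, 33.2, 33.1 and 18.1 FPKM in MCD and 20.9 to 53.9 (median 39.3) with limonin. The MCD libraries fell into a lower and a higher set, and the difference missed the threshold (0.63 ± 0.23, adjusted p = 0.0577, limma), though it passed without MCD 3, MCD 4 or limonin 1 (adjusted p = 0.0388, 0.0352 and 0.0095). Acot4, a thioesterase of dicarboxylic chains, measured 12.2, 10.7, 12.6, 14.6 and 10.5 FPKM in MCD and 12.4 to 19.6 (median 12.8) with limonin (0.21 ± 0.13). Acot8, a thioesterase of broad range, spanned 8.19 to 10.5 FPKM in MCD and 8.42 to 10.03 with limonin (-0.03 ± 0.09).

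Among enzymes of both organelles, Acad11 had the largest fitted change of the 44 members. This acyl-CoA dehydrogenase, which acts on hydroxylated chains (GRCm38 chr9:104063377-104127725), measured 5.65, 4.81, 5.73, 6.81 and 5.64 FPKM in MCD and 7.74 to 15.6 (median 10.3) with limonin. All 6 limonin libraries lay above MCD (0.82 ± 0.16, adjusted p = 0.00358, limma), and the call held under all 26 alternatives, as did that of Etfdh. Eci2, an enoyl-CoA isomerase, measured 29.2, 27.6, 33.7, 35.6 and 30.4 FPKM in MCD and 33.5 to 39.8 (median 37.1) with limonin. It missed the threshold (0.25 ± 0.09, adjusted p = 0.0571, limma) and passed it without MCD 4 or limonin 1 (adjusted p = 0.0382 and 0.043). Ech1, a dienoyl-CoA isomerase, measured 128, 126, 134, 135 and 138 FPKM in MCD and 96.6 to 157 (median 121) with limonin and was not called (-0.09 ± 0.12). Crat, the carnitine acetyltransferase, spanned 9.64 to 14.4 FPKM in MCD and 7.23 to 16.4 with limonin and was not called (adjusted p = 0.998, limma).

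Outside the organelles, Acot12, the cytosolic thioesterase of acetyl-CoA, measured 16.8, 15.1, 18.8, 20.1 and 15.6 FPKM in MCD and 19.0 to 29.6 (median 22.8) with limonin (0.44 ± 0.13, adjusted p = 0.0245, limma). Vnn1, a membrane pantetheinase that takes part in CoA turnover, measured 25.4, 16.5, 22.8, 28.6 and 26.2 FPKM in MCD and 26.2 to 39.9 (median 34.5) with limonin (0.50 ± 0.14, adjusted p = 0.0196, limma). In each, 5 of 6 limonin libraries lay above all of MCD, and both calls were lost without MCD 2 (adjusted p = 0.0729 and 0.0549). Acot12 was lost also without MCD 1, MCD 5 or limonin 4. Acot1, a cytosolic thioesterase, measured 3.21, 2.47, 3.34, 2.51 and 3.04 FPKM in MCD and 1.97 to 5.73 (median 2.88) with limonin and was not called. Acot1 and Acot2 are 94.3% identical over 1330 aligned bases, and Acot1 to Acot4 neighbour each other on chromosome 12, so how fragments were divided among them is uncertain.

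Pairs of genes of the same or a related step gave the comparison of the organelles. Not all pairs share a reaction. Abcd3 is a transporter and Cpt1a an acyltransferase, and Crot makes carnitine esters while Cpt2 restores CoA esters. The pairs were chosen with earlier results of these data known, and the p-values below make no allowance for that choice. For 8 pairs, the log2 ratio of peroxisomal to mitochondrial FPKM + 1 within each library was compared by exact two-sided permutation over all 462 splits, with adjustment over the 8. A factor common to a library cancels in such a ratio apart from the added 1, and with no pseudocount the same 2 ratios were called; steps that shift genes unequally, such as quantile normalization or removal of trends, do not cancel. Hsd17b4 to Hadha stood at 3.10, 3.09, 2.82, 2.87 and 3.05 in MCD and at 2.08 to 2.74 (median 2.37) with limonin. All 6 limonin libraries lay below MCD, a log2 difference of -0.32 ± 0.06 (exact p = 0.00433, the smallest the splits can give; adjusted p = 0.0346). Acaa1b to Acaa2 stood at 1.3001, 0.956, 1.09, 1.06 and 1.11 in MCD and at 0.796 to 1.01 (median 0.918) with limonin, 5 of 6 below MCD (-0.29 ± 0.09, exact p = 0.00866, adjusted p = 0.0346). In these pairs the peroxisomal share was lower with limonin. Leaving out 1 library kept the direction of both, and the calls held in 3 of the 11 fits. Such fits can lose a call through their size alone: the smallest exact p is then 0.00952 (4 against 6) or 0.00794 (5 against 5), and a ratio alone at that floor is adjusted over 8 to 0.0762 or 0.0635. Removal of length and GC trends left Hsd17b4 to Hadha at -0.35 (adjusted exact p = 0.0346) and took Acaa1b to Acaa2 to -0.16 (adjusted exact p = 0.369).

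Scp2 to Hadhb stood at 11.1, 12.4, 11.6, 11.8 and 10.1 in MCD and at 6.85 to 11.3 (median 8.18) with limonin, 4 of 6 below MCD, and missed the threshold (-0.38 ± 0.12, exact p = 0.0303, adjusted p = 0.0808); it passed without limonin 4 (-0.46, adjusted exact p = 0.0423). The remaining 5 ratios were not called. Abcd3 to Cpt1a was 0.833 to 0.913 in MCD and 0.794 to 1.21 with limonin (log2 difference 0.20, adjusted exact p = 0.19), and Acaa1a to Acaa2 differed by -0.15 (adjusted exact p = 0.201). The ratios of Ehhadh to Hadha (0.10), Crot to Cpt2 (0.13) and Decr2 to Decr1 (-0.06) had adjusted exact p of 0.704, 0.717 and 0.74. The direction was thus not shared by all pairs: 5 of the 8 log2 differences were below 0 and 3 above. Hadha and Acaa2 recur among the pairs, so these differences are not independent.

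**Figure D5:**
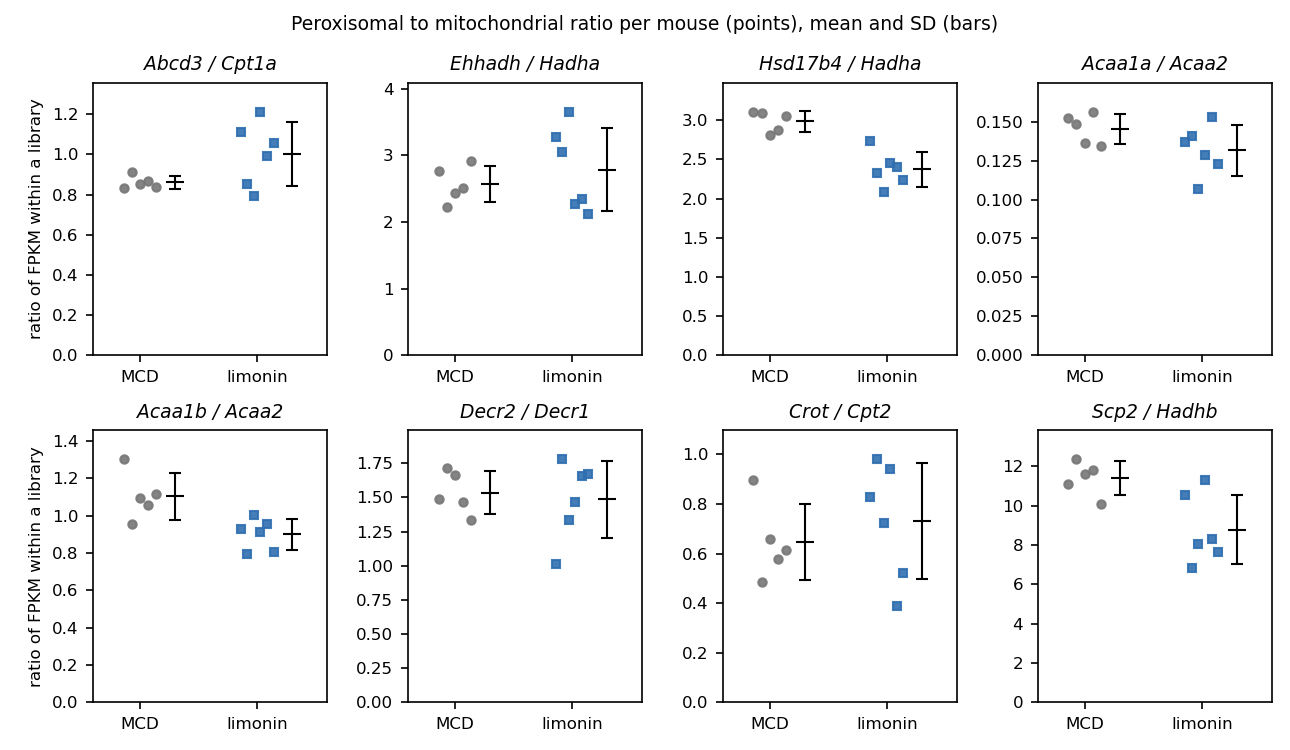
Ratio of peroxisomal to mitochondrial FPKM (vertical axes, from 0) for 8 pairs of genes in each mouse (points), with mean and SD (bars), 5 MCD and 6 limonin. Hsd17b4 to Hadha does not overlap between the groups, from 2.08 to 2.74 with limonin against 2.82 to 3.10 in MCD.

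The wider pathway was read through lists of further genes that share none of the members, to be read against the 7.24% of all genes tested that were called higher and the 18.7% called lower. Of 12 genes of alpha-oxidation and of branched and odd chains, 9 were higher and 1 was lower (median log2 fold change 0.41). Phyh, the hydroxylase that starts alpha-oxidation of phytanic acid, spanned 180.2 to 230.3 FPKM in MCD and 246 to 335 with limonin (0.47 ± 0.11), and Hacl1, the next lyase, rose by 0.77 ± 0.18. Mmut, the methylmalonyl-CoA mutase of odd chains, rose by 0.79 ± 0.19, while Mcee, the epimerase before it, fell by 0.42 (adjusted p = 0.0404, limma). Of 23 genes of carnitine supply, CoA turnover and further acyl-CoA enzymes, 6 were higher and 0 lower (median 0.08). They included the medium-chain synthetase Acsm1 (0.60 ± 0.12), Bbox1 of carnitine synthesis (0.56 ± 0.11) and Pank3 of CoA synthesis (0.54 ± 0.14).

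Of 22 genes of peroxisome biogenesis and membrane, 5 were higher and 1 was lower (median 0.17). Cat, the catalase that removes hydrogen peroxide, spanned 223 to 317 FPKM in MCD and 327 to 511 with limonin (0.56 ± 0.13), Pex3 rose by 0.44 ± 0.11, and the fission adaptor Fis1 fell by 0.42 (adjusted p = 0.00901, limma). Among 23 PPARalpha regulators and targets, 6 were higher and 2 lower (median 0.07). Ppara itself spanned 3.71 to 5.36 FPKM in MCD and 4.93 to 16.8 with limonin (0.75 ± 0.21, adjusted p = 0.0219, limma). The omega-hydroxylases Cyp4a10 and Cyp4a14 rose by 0.72 ± 0.11 and 0.73 ± 0.14, and the retinol saturase Retsat by 0.70 ± 0.12. The uncoupling protein Ucp2 fell by 0.90 ± 0.17 and the hormone gene Fgf21 by 1.52 ± 0.50 (adjusted p = 0.00355 and 0.0474, limma). Fgf21 spanned 68.1 to 139 FPKM in MCD and 10.5 to 94.6 with limonin, with 5 of 6 limonin libraries below all of MCD. The median over all genes tested, -0.07, is the level against which these list medians stand.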

How the data were processed

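Liver poly(A) RNA of 5 MCD and 6 limonin mice was sequenced from strand-marking libraries, per the labels' protocols. Tools named in the submitters' processing notes are cutadapt 1.9, HISAT2 2.0.4 and StringTie 1.3.4d. The build named in these notes, GRCh38, is human, but the table's identifiers are mouse; whether strand was used is not stated. Each gene of the deposited table has an FPKM in every library, per the file headers. The authors' own comparison stands beside it as a fold change (ratio of the means), a log2 of that ratio, a p-value and a q-value, per the file headers. The authors' deposited q-values called 22 members higher and 0 lower, 17 of them shared with the calls here. No counts were used. In genes with 1 transcript the smallest common step of FPKM gave an implied depth of 15540000 (MCD 3) to 19710000 (limonin 3) fragments; counting intervals are not given.

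Values were compared as log2(FPKM + 1), which understates the change of low genes, in R 4.3.3 with the package limma 3.58.1 (two-sided, mean trend and robust moderation on, threshold 0.05). The fit was tested on simulated data of 10489 genes with 200 changed, in 5 and 6 libraries. It called 8% of those shifted 1.25-fold, 70% at 1.5-fold and 92% at 2-fold, with 5 false calls. The simulated noise was independent between genes and libraries, and in the real data 2716 genes were called. The simulated shares therefore need not hold for the real data. Ratios used exact permutation in SciPy 1.17.1. Coordinates and transcripts are GENCODE M21 (GRCm38). Replicate numbers did not pair the libraries: correlations of same-numbered libraries were 0.08, -0.24, -0.17, 0.20 and -0.17. MCD values per library, with the range and median of limonin, are given for up to 3 members per role with the smallest p and all genes of the fixed pairs. From each list, values are given for the 3 genes with the smallest p and for those called lower, and also for Ppara. Members, pairs and lists were chosen with earlier results of these data known. Alternatives covered filters, pseudocounts, scalings, array weights, the replicate block and libraries left out.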

Additional observations from a re-analysis of the deposited data

Results flagged for a closer look

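Of 88 sets of values (44 members in each of the groups), 7 held 1 library whose gap to its nearest neighbour was large against the range of its group; chance gives about 1 in 20. Limonin 2 stood above the other limonin libraries in Acsl1 (55.2 FPKM), Acox2 (94.0 FPKM) and Hsd17b4 (98.4 FPKM). MCD 2 stood below the other MCD libraries in Hadh (37.0 FPKM) and Acaa1b (416 FPKM). Limonin 5 stood above the rest of its group in Acaa1a (80.0 FPKM), and limonin 1 stood below it in Decr2 (34.5 FPKM). Without limonin 2, Acsl1 and Acox2 kept their calls, and without MCD 2, Hadh kept its call.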

How the results depend on the processing

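Other pseudocounts, the filter at 5 FPKM, the fit with no trend and array weights left the 17 calls of members in place, and the median-ratio, equal-sum and quantile scalings kept all 17 and raised the count to 19, 20 and 19. With no filter the counts of members, mitochondrial members and peroxisomal members higher were 8, 5 and 0, and with hepatocyte-marker scaling 3, 1 and 0, with 8, 3 and 4 lower. On that last scale 19 members turned from above to below 0, among them, called on one scale or the other, Slc25a20 (-0.30), Decr1 (-0.065) and Etfa (-0.0044). After removal of length and GC trends 6 turned from below to above 0 (Acaa1a, Acaa1b, Crat, Ech1, Etfb and Acot8), of which Acot8 was called (0.30). Acaa1a, Acot8, Crat and Ech1 also turned above 0 with median-ratio and equal-sum scaling, and Acot8 and Crat with quantile normalization. Without MCD 4 and 5 the peroxisomal count was 2. Without limonin 5 and 6, 1 member, the mitochondrial Etfb, was lower (-0.36). Leaving out 1 library gave 8 to 18 members higher and 0 lower, 5 to 8 mitochondrial (5 without MCD 2, MCD 3 or limonin 4) and 0 to 6 peroxisomal (0 without MCD 2, 2 without MCD 1 or limonin 2, 6 without limonin 1).

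All genes called higher numbered 759, and 412 with no filter, 1470 with median-ratio scaling, 1813 with quantile normalization, 110 with hepatocyte-marker scaling, 486 without MCD 4 and 5, 1347 without limonin 5 and 6, 1462 after trend removal and 1844 by the authors' deposited q-values, and 328 to 1097 with 1 library left out. All genes called lower numbered 1957, and 900 at 5 FPKM, 1112 with equal sums, 5570 with hepatocyte-marker scaling, 1272 by the deposited q-values and 1080 to 2134 with 1 library left out. The share of calls that were higher was 27.9%, against 48.1% (median-ratio), 49.6% (equal sums), 52.9% (quantile) and 1.94% (hepatocyte markers).

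The replicate numbers, which did not pair the libraries (own number best for 1 of 5), were used as a block after limonin 6, which has no partner, was dropped. With the block 10 members, 4 mitochondrial and 2 peroxisomal, and 362 of all genes were higher and 895 of all genes lower. The ratios of Hsd17b4 to Hadha and Acaa1b to Acaa2 were -0.30 and -0.26 with the block (adjusted exact p = 0.167; 5 pairs cannot go below 0.0625 before adjustment). They were -0.33 and -0.31 without MCD 4 and 5, and -0.31 and -0.28 without limonin 5 and 6 (adjusted exact p = 0.127; the smallest exact p is then 0.0238 or 0.0159, so after adjustment a call can be lost through size alone). After trend removal Acaa1b to Acaa2 was -0.16. With 1 library left out they ran from -0.36 to -0.28 and from -0.34 to -0.23, and Scp2 to Hadhb from -0.46 to -0.31. The causes of these differences between settings were not tested.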

Other observations

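The mRNAs of the subunits of the electron transfer flavoprotein differed in their balance between libraries. The ratio of Etfb to Etfa in FPKM was 3.90, 4.71, 3.93, 3.88 and 3.99 in MCD 1 to 5 and 2.44, 2.27, 2.43, 2.04, 4.25 and 2.96 in limonin 1 to 6. This ratio was chosen after its values were seen and is given with no test. The longest coding transcripts hold 45.0% (Etfa) and 57.1% (Etfb) GC, and the FPKM used had no length or GC trends removed. Removal of these trends took the difference of Etfb from -0.23 to 0.10. In 5 of 6 limonin libraries the ratio lay below all MCD libraries, and limonin 5 was the exception. The sum of the near-identical peroxisomal thiolases Acaa1a and Acaa1b, set against Acaa2 as an alternative added after the data were seen, was 1.10 to 1.45 in MCD and 0.927 to 1.11 with limonin, a log2 difference of -0.27 (exact permutation p = 0.013, 4 of 6 limonin libraries below MCD). That p is unadjusted and makes no allowance for the choice. Acaa1b makes up most of the sum, so the ratio largely repeats Acaa1b to Acaa2. After removal of length and GC trends, Acaa1b to Acaa2 was -0.16 (adjusted exact p = 0.369).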
